A study of Mus musculus with 6 samples.

Results

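The nuclear lamina is a meshwork of lamin filaments that lines the inner nuclear membrane, and it is held there by membrane proteins that bind lamins, chromatin or both. A-type lamins (*Lmna*) and B-type lamins (*Lmnb1* and *Lmnb2*) form the filaments. The lamin B receptor, the LEM-domain proteins and the SUN proteins are anchored in or at the inner membrane, and through them peripheral heterochromatin and the cytoskeleton are tied to the envelope. Members of this system were chosen by name, 10 of the 26656 gene IDs in the table: *Lmna*, *Lmnb1*, *Lmnb2*, *Lbr*, *Emd*, *Tmpo*, *Lemd3*, *Banf1*, *Sun1* and *Sun2*. All 10 were found.

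RNA came from N2a (Neuro-2a) cells, a mouse neuroblastoma line whose genotype is given as WT. Cells of both groups received a pLKO.1 plasmid, were kept under puromycin at 9.3 µg/ml from 24 h after transfection and were harvested at 72 h. In the NPM1 KD group the plasmid carried the construct shNpm1, a single hairpin against *Npm1*, and in the CTR group a non-target hairpin (shCTR). Each group had 3 libraries, made by PCR barcoding and sequenced with nanopore long reads. The study addresses what NPM1, a histone chaperone of the nucleolus, does for heterochromatin around the nucleolus, and the comparison below asks which transcripts of the nuclear envelope differed after its depletion.

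*Npm1* had an rlog value (regularized log, a log2-scale expression value adjusted for library size) of 10 in every CTR library and 8 in every NPM1 KD library, a difference of -2 (SE 0.33, adjusted p = 3.23e-06, limma). The knockdown was therefore seen in all 3 libraries. Regularization draws the values of genes with few reads together, so an rlog difference can be smaller than the log2 ratio of reads. Of the markers of the cell line, *Hand2* had rlog values of 7 to 8, while *Nefl* was listed at 0. None of the 6 fibroblast, 5 immune and 4 epithelial markers was high enough to be tested. Size factors, which measure relative depth, were 1.241, 1.302 and 1.114 in the CTR libraries and 0.7836, 0.8327 and 0.9606 in the NPM1 KD libraries, so every NPM1 KD library was shallower than every CTR library. Fewer cells of one kind and less RNA per cell cannot be told apart in such bulk libraries.

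None of the 10 genes passed the test across all genes in either direction. On rlog values 8 of them were tested (limma, 5752 genes, adjusted p below 0.05), and 0 of 8 were called. Over all genes tested, 0.0695% were called higher and 0.417% lower upon NPM1 KD, and a count of 0 among 8 genes is near that background. One of the 8 differences was above 0, 4 were below 0 and 3 were exactly 0, with a median of -0.17, against a median of 0.00 over all genes tested. Deposited rlog values of 1 or more are rounded to whole numbers, and 48.0% of all genes tested had a difference of exactly 0. At an unadjusted p below 0.05 there were 813 of the 5752 genes, among them *Tmpo* and *Sun1*.

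**Figure D1:**
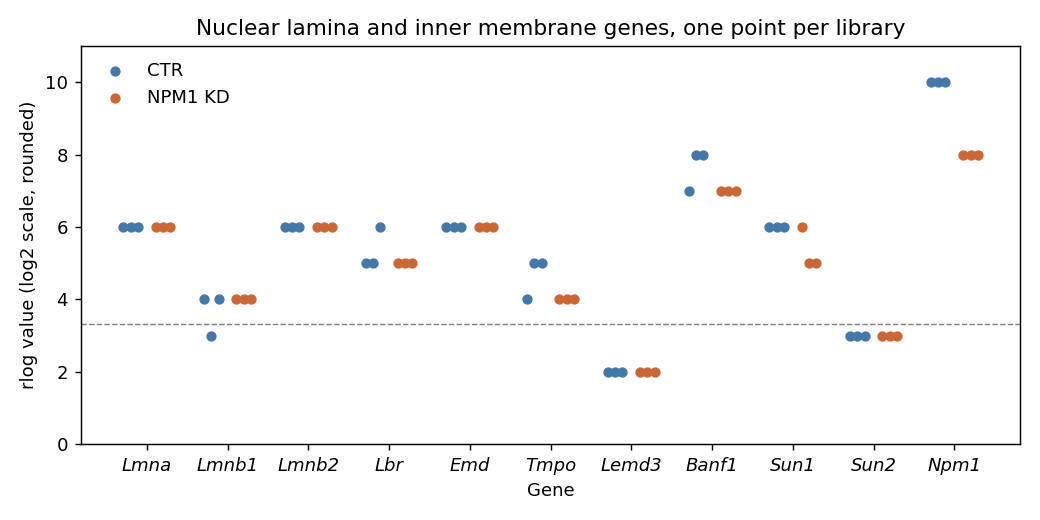
Rounded rlog values (y axis, log2 scale) of the 10 nuclear lamina and inner membrane genes and of *Npm1* (x axis), with 1 point for each of the 3 CTR (blue) and 3 NPM1 KD (orange) libraries. The dashed line is log2 of 10, the lowest mean that was tested; the groups are apart for *Npm1* and share at least 1 value for each of the 10 genes.

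Among the filament proteins, *Lmna* (ENSMUSG00000028063), which encodes lamins A and C, had an rlog value of 6 in all 6 libraries. *Lmnb2* (ENSMUSG00000062075), a B-type lamin, was also at 6 in all 6. For both the difference was 0.00 with a 95% interval from -0.67 to 0.67, an interval that is not adjusted for the number of genes. With the adjustment, genes such as *Cbx3* with a difference of -1 also missed the threshold (adjusted p = 0.0791, limma), so a change of that size could have gone uncalled. *Lmnb1* (ENSMUSG00000024590), the other B-type lamin, had rlog values of 4, 3 and 4 in CTR, against 4, 4 and 4 in NPM1 KD. Its difference of 0.33 (SE 0.36, adjusted p = 0.713, limma) was within the spread of the CTR libraries.

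*Lbr* (ENSMUSG00000004880), the lamin B receptor, tethers heterochromatin to the B-type lamina and has sterol reductase activity. Its rlog values were 5, 5 and 6 in CTR, against 5, 5 and 5 in NPM1 KD, a difference of -0.33 (SE 0.33, adjusted p = 0.713, limma). The third CTR library alone set it apart from NPM1 KD.

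The LEM-domain proteins bind the small DNA-bridging protein BAF, which *Banf1* encodes. *Emd* (ENSMUSG00000001964), encoding emerin, was at an rlog value of 6 in all 6 libraries (difference 0.00, 95% interval -0.67 to 0.67). *Tmpo* (ENSMUSG00000019961), encoding the lamina-associated polypeptides 2, had values of 4, 5 and 5 in CTR, against 4, 4 and 4 in NPM1 KD. Its difference was -0.67 (SE 0.33, adjusted p = 0.330, limma), and the first CTR library had the same value as every NPM1 KD library. *Banf1* (ENSMUSG00000024844) had values of 7, 8 and 8 in CTR, against 7, 7 and 7 in NPM1 KD. The difference was -0.67 (SE 0.35, adjusted p = 0.330, limma), again with the first CTR library at the NPM1 KD level.

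The SUN proteins span the inner membrane and join lamins to the nesprins of the outer membrane, forming the LINC complex. *Sun1* (ENSMUSG00000036817) had rlog values of 6, 6 and 6 in CTR, against 6, 5 and 5 in NPM1 KD, a difference of -0.67 (SE 0.34, adjusted p = 0.330, limma). The first NPM1 KD library was at the CTR level. *Sun2* (ENSMUSG00000042524) was at 3 in all 6 libraries and *Lemd3* (ENSMUSG00000048661), a LEM-domain protein that binds SMAD factors, at 2 in all 6, both below the level tested on this scale. By an exact permutation test of 3 against 3 libraries, two-sided, no p below 0.1 is possible, and *Tmpo*, *Banf1* and *Sun1* each had p = 0.400.

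**Figure D2:**
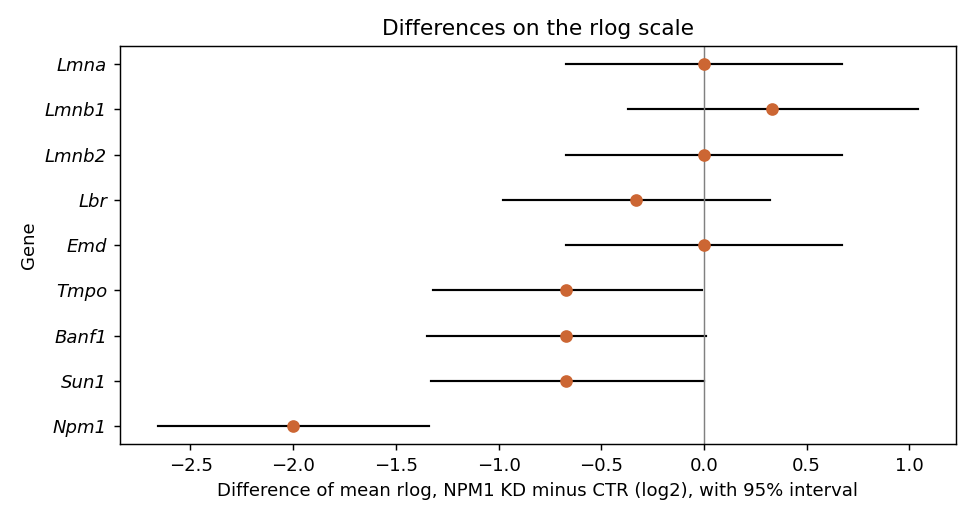
Difference of the mean rlog value, NPM1 KD minus CTR (x axis, log2), for the 8 genes tested and *Npm1* (y axis); points are differences and lines their 95% intervals from the limma fit. The intervals of *Tmpo*, *Banf1* and *Sun1* reach from between -1.32 and -1.35 to about 0, and that of *Npm1* from -2.66 to -1.34.

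Rounding and regularization both hide differences in genes with few reads. *Sun2*, for example, had an rlog difference of 0.00, while its reads divided by the size factors had a log2 ratio of group means of -1.71. Reads per library were therefore also solved from the authors' mean normalized count, which is printed to 10 digits. This was possible for 4339 genes with a mean from 2 to 10, each with exactly 1 set of whole reads. *Sun2* and *Lemd3* are among them, and *Lmnb1*, with a slightly higher mean, had 5 sets, of which 1 followed the order of its rlog values. The other 7 genes had too many reads to be solved. Limma voom was fitted first and called 0 of 4339 genes (0% higher and 0% lower), with 533 at an unadjusted p below 0.05. A count model (quasi-Poisson with a moderated dispersion) was written only after that result had been seen. It called 11 genes higher (0.254%) and 96 lower (2.21%), and both are given below for each gene.

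*Sun2* had 21, 14 and 14 reads in CTR, against 1, 4 and 6 in NPM1 KD. Divided by the size factors these were 16.9, 10.8 and 12.6 in CTR (mean 13.4 ± 3.17, SD, n = 3) and 1.28, 4.80 and 6.25 in NPM1 KD (mean 4.11 ± 2.56, SD, n = 3). Every NPM1 KD library was below every CTR library, a pattern that 12% of the 4339 genes showed in this direction. The ratio of the pooled reads was 0.319, with a 95% interval from counting error alone of 0.149 to 0.621 (exact Clopper-Pearson). Exons of *Sun2* overlap the opposite-strand gene *Gm16575* in GENCODE M21. If strand was not used, that overlap could have added reads to *Sun2* or kept some of its reads from being counted, which was not tested. Neither fit called *Sun2*: the log2 difference was -1.66 (SE 0.55, adjusted p = 0.283) by limma voom and -1.60 (SE 0.58, adjusted p = 0.0609) by the count model. When each library was left out in turn, its adjusted p ranged from 0.0551 to 0.308 in the count model.

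*Lemd3* had 3, 6 and 8 reads in CTR, against 4, 6 and 4 in NPM1 KD. The normalised reads were 4.73 ± 2.38 (SD, n = 3) in CTR and 5.49 ± 1.56 (SD, n = 3) in NPM1 KD, and the groups overlapped. The log2 difference was 0.33 (SE 0.55, adjusted p = 0.853) by limma voom and 0.23 (SE 0.59, adjusted p = 0.917) by the count model, and the pooled ratio of 1.17 had a counting interval of 0.533 to 2.52.

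*Lmnb1* had 15, 10 and 21 reads in CTR, against 7, 8 and 22 in NPM1 KD. Its normalised reads were 12.1, 7.68 and 18.8 against 8.93, 9.61 and 22.9, with means of 12.9 ± 5.63 and 13.8 ± 7.88 (SD, n = 3 each). The third library was the highest in both groups, and the spread between libraries of one group was larger than the difference between groups. The pooled ratio was 1.14, with a counting interval of 0.72 to 1.80. *Lmnb1* lay above the range in which genes were tested on reads and got no p-value there.

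**Figure D3:**
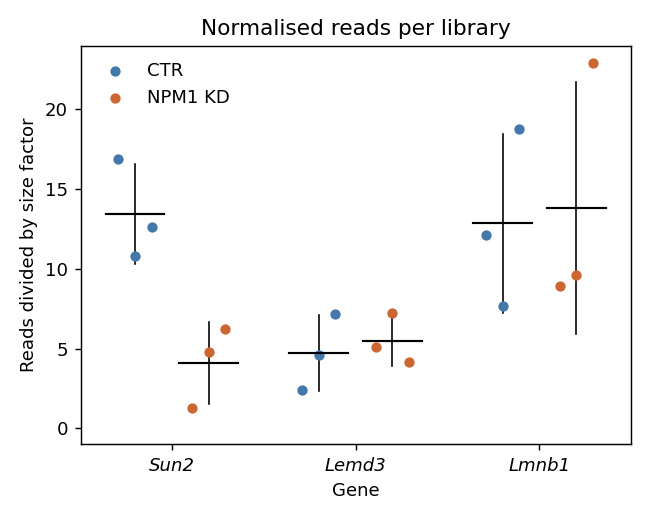
Reads divided by the size factor (y axis) for *Sun2*, *Lemd3* and *Lmnb1* (x axis) in each CTR (blue) and NPM1 KD (orange) library; bars are means and vertical lines SDs of 3 libraries. The 3 *Sun2* points of NPM1 KD, from 1.28 to 6.25, lie below the 3 of CTR, from 10.8 to 16.9, while the other genes overlap.

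The partners of the SUN proteins were examined next. Nesprins span the outer nuclear membrane and bind the cytoskeleton, and torsins are ATPases of the envelope lumen that are activated by the membrane proteins LAP1 (*Tor1aip1*) and LULL1 (*Tor1aip2*). Of 10 genes listed as LINC complex and torsins, 1 was tested on rlog values and 6 on reads. On rlog values and by limma voom 0 of these were called. The count model called 0 higher and 2 lower, *Syne1* and *Syne3*, where 2.21% of all 4339 genes were called lower. With the replicate number as a block it called neither.

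*Syne1*, encoding nesprin-1, had 17, 13 and 9 reads in CTR, against 1, 0 and 0 in NPM1 KD. The normalised reads were 10.6 ± 2.86 in CTR and 0.425 ± 0.737 in NPM1 KD (SD, n = 3 each). The pooled ratio was 0.0364, with a counting interval of 0.000899 to 0.215. The log2 difference was -4.21 (SE 1.39, adjusted p = 0.000552) by the count model and -3.67 (SE 1.01, adjusted p = 0.283) by limma voom.

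*Syne3*, encoding nesprin-3, had 13, 6 and 3 reads in CTR, against 0, 0 and 1 in NPM1 KD, for a pooled ratio of 0.0645 with a counting interval of 0.00156 to 0.399. Its log2 difference was -3.40 (SE 1.40, adjusted p = 0.0219) by the count model and -2.74 (SE 1.06, adjusted p = 0.321) by limma voom. The count model called it in 2 of 6 fits that left out a library; without CTR replicate 1, which held 13 of the 22 CTR reads, its adjusted p was 0.193, and it was 0.132, 0.132 and 0.0506 without NPM1 KD replicates 1, 2 and 3. *Syne2*, encoding nesprin-2, had 12, 25 and 4 reads in CTR, against 8, 10 and 3 in NPM1 KD. Its groups overlapped and its pooled ratio of 0.727 had an interval of 0.408 to 1.26.

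The longest annotated transcript of *Syne1* has 27908 bases, that of *Syne2* 21704, that of *Syne3* 5263 and that of *Sun2* 4413 (GENCODE M21, GRCm38). Over the 4339 genes the median voom log2 difference was -0.05 for the shortest tertile of transcripts, -0.12 for the middle and -0.11 for the longest. The part of transcript length in the *Syne1* difference was not tested.

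No torsin gene or activator was called by any of these fits. *Tor1a*, encoding torsin-1A, was at an rlog value of 4 in all 6 libraries (difference 0.00, adjusted p = 1.00, limma). *Tor1a*, *Tor1b*, *Tor1aip1*, *Tor1aip2*, *Syne2*, *Zmpste24*, *Vrk1*, *Nrm*, *Cbx1*, *Cbx5* and the *Mcm* genes were chosen for mention after their values had been seen. *Tor1aip1* had 4, 10 and 7 reads in CTR, against 12, 10 and 8 in NPM1 KD, and *Tor1b*, a torsin, had 5, 8 and 8 against 8, 7 and 11. After division by the size factors neither gene's groups overlapped, as for 7.28% of all 4339 genes in this direction. Adjusted p was 0.344 and 0.442 by limma voom and 0.307 and 0.444 by the count model. *Tor1aip2* had 2, 1 and 3 reads in CTR, against 4, 2 and 8 in NPM1 KD (adjusted p = 0.406 by limma voom and 0.247 by the count model).

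**Figure D4:**
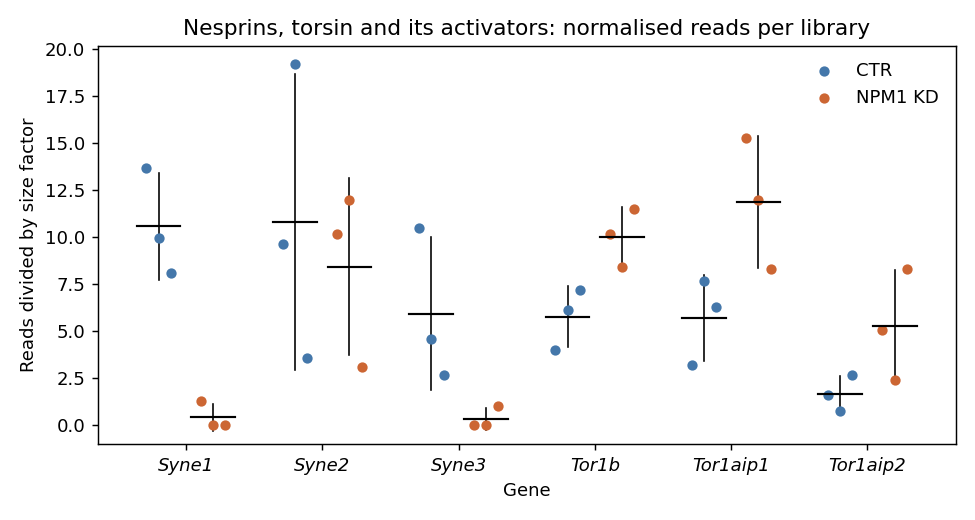
Reads divided by the size factor (y axis) for 3 nesprin genes, *Tor1b*, *Tor1aip1* and *Tor1aip2* (x axis) in each CTR (blue) and NPM1 KD (orange) library; bars are means and vertical lines SDs of 3 libraries. *Syne1* was between 8.08 and 13.7 in CTR and between 0 and 1.28 in NPM1 KD.

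In the wider envelope system no further gene was called by any of these fits. Of the 5 genes for lamin processing, 2 were tested on rlog values and 3 on reads. *Zmpste24*, the protease that matures prelamin A, had 8, 12 and 5 reads in CTR, against 14, 11 and 8 in NPM1 KD, with overlapping groups after normalisation to 6.44, 9.21 and 4.49 against 17.9, 13.2 and 8.33 (adjusted p = 0.381 by limma voom and 0.343 by the count model). Of the 7 LEM relatives and BAF regulators, 2 were tested on rlog values and 2 on reads; *Vrk1*, a kinase that releases BAF from DNA, had rlog values of 5, 5 and 5 in CTR, against 4, 4 and 5 in NPM1 KD (adjusted p = 0.330, limma). Of 10 other inner membrane proteins, 4 were tested on rlog values and 6 on reads. Of the latter 6, 5 had a log2 difference below 0 by voom, as had 2360 of all 4339 genes tested on reads. *Nrm*, encoding nurim, had 12, 11 and 3 reads in CTR, against 4, 0 and 1 in NPM1 KD (adjusted p = 0.390 by limma voom and 0.141 by the count model).

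Heterochromatin protein 1 gamma, encoded by *Cbx3*, binds methylated H3K9 and the lamin B receptor. *Cbx3* had an rlog value of 7 in every CTR library and 6 in every NPM1 KD library. The difference of -1 (SE 0.35, adjusted p = 0.0791, limma) missed the threshold, and groups without overlap in this direction were found for 3.41% of all genes tested. *Cbx1* and *Cbx5*, encoding the other two heterochromatin proteins 1, were at 6 and 5 in all 6 libraries. *Rb1*, encoding the retinoblastoma protein, had 4, 5 and 3 reads in CTR, against 1, 0 and 0 in NPM1 KD, with a mean of 1.84, below the range in which solved reads were checked and tested, and its solved reads did not follow the order of its rlog values in full.

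Proliferation genes were listed because the level of lamin B1 is known to differ between dividing and arrested cells. Of 11 genes, 10 were tested on rlog values and 0 were called. Of the differences, 6 were below 0, 1 above and 3 equal, with a median of -0.33. Over all 5752 genes tested, 1574 were below 0, 1416 above and 2762 equal, with a median of 0.00. *Mki67* was at 6 in CTR and 5 in NPM1 KD and *Top2a* at 8 and 7 (adjusted p = 0.0791 for each, limma). Neither gene's groups overlapped, as for 3.41% of all genes tested in this direction. The 5 replicative helicase genes among those tested on rlog values, *Mcm2* to *Mcm6*, overlapped between groups. Of the neuroblastoma markers, *Chga* fell from 7 in every CTR library to 5, 6 and 6 (difference -1.33, SE 0.34, adjusted p = 0.0260, limma). The part of either in the values of the lamina genes was not tested.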

How the data were processed

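Groups and replicate numbers come from the labels, as this RNA-seq is not described in the paper. The study's design gives 3 biological replicates per condition and the treatment protocol 2, so p-values measure the spread between libraries, which may be partly technical. The deposited rlog score of each gene and library is on the log2 scale; the authors also deposited a mean normalized count per gene, and fold changes and p-values of their own comparison, which were not used. The submitters' processing notes name minimap2, featureCounts, DESeq2 and GRCm39, without versions; the strand setting is not given in the sources used here. Exons of *Lbr*, *Emd*, *Tmpo*, *Banf1*, *Sun1* and *Sun2* overlap those of another gene in GENCODE M21 (GRCm38). Reads in such overlaps may be mixed or left uncounted. Coordinates are not given, because the annotation at hand is of another build.

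Rows repeating a gene ID (257 of 26913) were removed. Where the rlog values of a gene averaged log2 of 10 or more, limma 3.58.1 was applied (R 4.3.3, lmFit, eBayes with trend), two-sided, with variances below 0.0833, which rounding to whole numbers adds, raised to it, and Benjamini-Hochberg adjustment over all genes tested at 0.05.

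Reads per library were solved after the files had been seen. A mean normalized count is a sum of whole reads, each weighted by its library's size factor; genes with 1 read gave the 6 weights and genes with 2 reads in the same library named that library. All 4339 genes with a mean from 2 to 10 had exactly 1 solution, against 2% of 300 random values, and 96.5% of those with differing rlog values (1757 of 1820) followed their order. Solved reads are inferred from that mean. Limma voom was fitted to them first and called 0 genes. The count model (Pearson dispersion, squeezed with limma's squeezeVar with trend, not below 1, F test) was written after that, and its comparison with voom on simulated data was made after that too, so its calls are exploratory and stand beside voom's. Intervals of pooled ratios cover counting error only. The limma fit on rlog values, both fits on reads and the solving were tested on simulated data. At the smallest spread the rlog fit made more false calls than its threshold allows (10.3%). The count model also did so at its smallest spread with the smaller simulated size (5.90%). Both fits on reads missed most changes of that smaller size, so a gene that was not called may still differ. The size was a log2 change of 2, of which the count model recovered 0.300% to 37.5% and voom 2.25% to 14.3%. The rlog fit was simulated only at a log2 change of 2. Smaller changes, such as the -0.67 of *Tmpo* on rlog values, were not simulated.

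The main fits did not pair the libraries by replicate number, as no source names such a pairing. The 10 genes, the related lists and the markers were chosen with earlier results of these data known. The rule for naming genes was *Npm1*, the 10 genes, and related genes past the threshold or without overlap between groups on rlog values; other genes named were chosen after their values had been seen. Some markers are not reported here.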

Additional observations from a re-analysis of the deposited data

How the results depend on the processing

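In every alternative fit on rlog values or on reads, 0 of the 10 genes were called. Over all genes, calls on rlog values (4 higher, 24 lower) became 123 and 178 without the limit on variance, 1 and 10 without the filter on low values, 132 and 218 without the trend, and 0 to 2 and 5 to 9 with each library left out; related genes called (0) became 3 without the limit and 3 without the trend. The cause was not tested. With the replicate number as a block, calls were 1 higher and 7 lower on rlog values and 0 on reads by both models, where the adjusted p of *Syne1* was 0.113 and that of *Syne3* 0.177 in the count model, so both calls were lost; with each library left out, that of *Syne1* was 0.000187 to 0.0203. Deviations of same-numbered libraries correlated at 0.00 to 0.03 across genes. Rounded rlog values and low read numbers would also hold such correlations near 0, so whether the numbers are a pairing was not settled.

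On reads, limma voom called 0 genes in every alternative, while the count model, written after voom's result was known, called 11 higher and 96 lower. These became 2 to 15 and 21 to 113 with each library left out, and 4 and 72 at a mean of 5 or more. Related genes called by the count model (2) became 1 at a mean of 5 or more, where *Syne3*, with a mean of 3.14, was not tested. *Syne1* was still called there (adjusted p = 0.000313, count model). With each library left out, 1 to 2 related genes were called. The alternatives on reads were added after the data had been seen. Rounding and regularization limit the rlog scale and depth the reads. NPM1 KD libraries had lower size factors than CTR libraries. Most genes of the list held too many reads to be solved. For those, only whole steps of the rlog scale were seen in a single library.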
